A study of Homo sapiens with 14 samples.

Results

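The receptors of activin and TGF-beta and the SMADs that act below them were followed as 10 listed genes, named by symbol: the type II receptors ACVR2B, ACVR2A, BMPR2 and TGFBR2, the type I receptors ACVR1, ACVR1B, BMPR1A and TGFBR1, and the SMADs SMAD3 and SMAD7. Of these, 9 were found in each of the count tables, which hold 16604 genes between them and 12126 in common, and ACVR1 was not analysed here. The family was chosen by a measured value, the change of ACVR2B after the RBPMS knockdown, which was among the clearest falls there. The knockdown values of all 9 genes are therefore given as a description without a test, and the compound experiment, which did not enter the choice, is tested.

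RNA came from Kasumi-1, a cell line labelled as myeloblast from peripheral blood that carries the 8;21 chromosome translocation, and all groups share this line. In the knockdown experiment cells were infected for 48 h with lentivirus and then selected with puromycin for 48 h. The virus carried either a scramble hairpin (shCtrl, 3 libraries) or one directed at the RBPMS transcript (shRBPMS, 3 libraries). The compound experiment set 2 DMSO libraries beside 2 libraries of cells given RB98#, an agent identified by code name alone, and the labels used here give no dose, time or number of distinct shRNAs. The labels do not say whether replicates were separate cultures, so the p-values measure the spread between these libraries, which may be technical.

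Ligands of this family bind a pair of type II receptors, which phosphorylate type I receptors, and these phosphorylate receptor SMADs such as SMAD3 that join SMAD4 in the nucleus. SMAD7 is an inhibitory SMAD, itself induced by the pathway, that blocks type I receptors. In blood cells TGF-beta is known for holding back the growth of early progenitors, and activin for effects on erythroid and myeloid cells.

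Totals were 24027255 to 34375418 counts per library in the knockdown experiment and 13854281 to 15347684 in the compound experiment. The knockdown library names fall into 2 sets, with replicate 1 of each group in set 1 and replicates 2 and 3 in set 2, and the labels do not say what a set stands for. Mitochondrially encoded genes took 15.2% and 13.2% of counts in the set 1 libraries and 6.20% to 6.95% in set 2. RBPMS, the target of the shRNA, was at 20.4, 7.24 and 7.39 CPM in shCtrl replicates 1 to 3. It was at 2.53, 3.34 and 3.08 CPM in shRBPMS, lower with no overlap, as were 13.6% of all genes tested. Its log2 change was -1.96 and was not called by edgeR with the group alone (adjusted p = 0.0846). The log2 ratio was -3.01 in set 1 and -1.19 in set 2. All 6 myeloblast markers looked for were measured, with a summed level of 13600 to 17600 CPM in shCtrl and 15200 to 16900 CPM in shRBPMS, and CD33 and ANPEP among them rose. The 6 stromal markers were not among the genes analysed. Of 6 lymphoid markers 5 were measured in the knockdown, with a sum of 12.6 to 12.9 CPM in shCtrl and 4.97 to 6.29 CPM in shRBPMS, and CD3D and CD3E fell. PECAM1, the 1 endothelial marker measured of 3, ranged over 96.6 to 404.0 CPM in shCtrl and 45.7 to 105.0 CPM in shRBPMS. With RB98# the myeloblast sum was 14400 to 14500 CPM in DMSO and 16000 to 17000 CPM in RB98#. MPO and RUNX1T1 rose there and CD33, CD34 and KIT fell. Of 4 monocyte markers 2 were measured, with a sum of 20.3 CPM in DMSO and 22.1 to 23.8 CPM in RB98#. Of these CSF1R fell and LYZ was not called. The part of these markers in the results below was not tested. In bulk RNA, fewer cells of a type and less RNA per cell cannot be told apart.

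The stretches just before the first RefSeq start of 3 receptor genes are shown because these genes head the results below: ACVR2B, lowest relative to control after the knockdown, and TGFBR2 and BMPR2, which rose most among the receptors with RB98#. They run 5′ to 3′ on the plus strand of GRCh38.p14 from RefSeq, at chr3:38453640-38453850, chr3:30606106-30606355 and chr2:202376077-202376326. Capitals mark a GC box (GGGCGG or its reverse CCGCCC) or a CAGAC box (CAGAC or GTCTG), a short element of the kind SMADs bind.
ACVR2B: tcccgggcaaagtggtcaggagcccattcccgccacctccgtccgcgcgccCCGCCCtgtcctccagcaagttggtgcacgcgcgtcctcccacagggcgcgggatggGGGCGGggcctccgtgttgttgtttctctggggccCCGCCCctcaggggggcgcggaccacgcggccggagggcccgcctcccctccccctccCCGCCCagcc
TGFBR2: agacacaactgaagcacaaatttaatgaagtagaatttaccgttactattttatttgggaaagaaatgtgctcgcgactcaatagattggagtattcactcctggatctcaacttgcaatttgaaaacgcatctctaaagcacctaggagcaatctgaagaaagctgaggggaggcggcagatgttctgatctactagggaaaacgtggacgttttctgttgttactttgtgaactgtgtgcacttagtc
BMPR2: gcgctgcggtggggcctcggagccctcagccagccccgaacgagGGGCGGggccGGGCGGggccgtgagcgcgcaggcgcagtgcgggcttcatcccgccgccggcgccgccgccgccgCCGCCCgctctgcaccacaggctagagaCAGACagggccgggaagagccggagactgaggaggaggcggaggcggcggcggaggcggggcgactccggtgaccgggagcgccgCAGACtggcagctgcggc
The shown ACVR2B stretch ends before the first exon in GENCODE v29. Over the full 250 bases before the first start, 4 of the 9 genes held a GC box on either strand (ACVR2B, ACVR1B, BMPR2 and SMAD3), against 42.2% of the 27305 genes with such a window. ACVR2B had 5 such matches in 250 bases and TGFBR2 had 0. A CAGAC box was found in BMPR2 and SMAD7, against 37.9% of all windows. By GENCODE v29 the windows of SMAD7 and ACVR2A begin in an exon of the same gene. That of ACVR1B runs into an exon, and that of SMAD3 lies within its gene. The palindrome GTCTAGAC, a full SMAD box, was in 0 of the 9 windows and in 0.183% of all, and the AP-1 site TGAGTCA in 0 of the 9 and in 4.15% of all. These are matches of letters on both strands and say nothing of binding.

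Relative levels of the 9 genes were read per exon length, as FPKM (counts per kilobase of exon and per 1e+06 counts). For most of the 9 the length behind these values differed from GENCODE v29 exon length by more than 1%. The order of genes close in level therefore depends on the length used. In DMSO cells TGFBR2, the TGF-beta type II receptor, was the highest at 17.2 ± 0.188 FPKM (mean ± SD, n = 2). The activin type I receptor ACVR1B followed at 11.4 ± 0.581 FPKM and the TGF-beta type I receptor TGFBR1 at 9.93 ± 0.937 FPKM. BMPR1A, a BMP type I receptor, and ACVR2B, an activin type II receptor, lay next to each other at 4.39 ± 0.0450 and 4.16 ± 0.263 FPKM, a gap smaller than the SD of ACVR2B. SMAD3 was at 2.80 FPKM, BMPR2, the BMP type II receptor, at 1.86 FPKM, and SMAD7 at 1.16 FPKM. ACVR2A, the close relative of ACVR2B, was the lowest at 0.201 ± 0.0557 FPKM. Per length, ACVR2B stood above ACVR2A in every library of both experiments.

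In shCtrl cells the order began in the same way, with TGFBR2 at 30.0 ± 2.35 FPKM and ACVR1B at 19.4 ± 0.515 FPKM (n = 3, the CPM value divided by the exon length behind the deposited FPKM). TGFBR1 at 7.88 ± 0.291 FPKM and ACVR2B at 7.81 ± 0.531 FPKM overlapped there. BMPR1A was at 4.76, SMAD3 at 3.88, SMAD7 at 3.45 ± 1.44 and BMPR2 at 2.36 FPKM, and the libraries of SMAD7 overlapped those of SMAD3 and of BMPR2. ACVR2A was again lowest at 0.114 FPKM. The experiments were scaled apart, so these levels are not compared between them.

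After the knockdown, 8 of the 9 genes had a lower mean than shCtrl, by log2 changes of -0.23 to -1.86, against 48.1% of all genes with a change below 0. ACVR2A was the exception. ACVR2B, which had led to the choice of this family, was at 131.0, 114.3 and 122.5 CPM in shCtrl replicates 1 to 3 (CPM is the count per 1e+06 counts, scaled by TMM factors). It was at 31.0, 36.8 and 33.8 CPM in shRBPMS. The highest shRBPMS library lay well below the lowest shCtrl library. The log2 change was -1.86 (SE 0.13), which is 3.62-fold lower. The antisense gene ACVR2B-AS1 overlaps it on the other strand, and since the strand setting of the counting is not given, reads of both cannot be told apart. Its own level was 1.74 to 2.65 CPM among shCtrl libraries and 1.14 to 1.29 CPM among shRBPMS libraries.

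ACVR2A, which binds much the same ligands as ACVR2B, rested on 16 to 34 counts per library. It was at 1.11, 0.574 and 0.514 CPM in shCtrl and at 1.39, 0.984 and 0.715 CPM in shRBPMS. The groups overlapped, and the log2 change was 0.50 (SE 0.42).

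The other type II receptors differed less between the groups than ACVR2B. TGFBR2 was at 223.9, 199.97 and 193.2 CPM in shCtrl and at 117.4, 164.7 and 139.1 CPM in shRBPMS (log2 change -0.55, SE 0.16). All shRBPMS libraries lay below all shCtrl libraries, and set 1 had the widest gap. BMPR2 was at 38.6, 24.9 and 24.9 CPM in shCtrl and at 32.2, 21.95 and 21.4 CPM in shRBPMS. Its groups overlapped, replicate 1 of each group lay above replicates 2 and 3, and its log2 change of -0.23 (SE 0.25) was 0.00 without shCtrl replicate 1.

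The type I receptors measured, the kinases that phosphorylate SMADs, were all lower without overlap, as were 13.6% of all genes tested. TGFBR1 was at 54.8, 55.003 and 51.5 CPM in shCtrl and at 41.6, 41.3 and 38.5 CPM in shRBPMS (log2 change -0.41, SE 0.11). BMPR1A was at 56.1, 40.8 and 39.2 CPM against 35.3, 29.9 and 29.3 CPM (-0.53, SE 0.18). ACVR1B was at 112.6, 106.8 and 110.0 CPM against 71.9, 97.8 and 95.3 CPM (-0.31, SE 0.15). In ACVR1B shRBPMS replicate 1 was far lower than the other shRBPMS libraries, which lay closer to shCtrl.

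Both SMADs were lower too. SMAD3, the receptor SMAD of activin and TGF-beta, was at 40.9, 37.1 and 38.2 CPM in shCtrl and at 28.5, 28.4 and 31.5 CPM in shRBPMS (log2 change -0.39, SE 0.12). SMAD7 was at 7.62, 18.9 and 14.4 CPM in shCtrl and at 3.06, 6.99 and 6.33 CPM in shRBPMS (-1.32, SE 0.42). Replicate 1 of SMAD7 was low in both groups, at 0.458 of the mean of replicates 2 and 3 in shCtrl and 0.459 in shRBPMS. The ratio between the groups was the same in both sets, -1.32 in log2 units in set 1 and -1.32 in set 2.

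**Figure D1:**
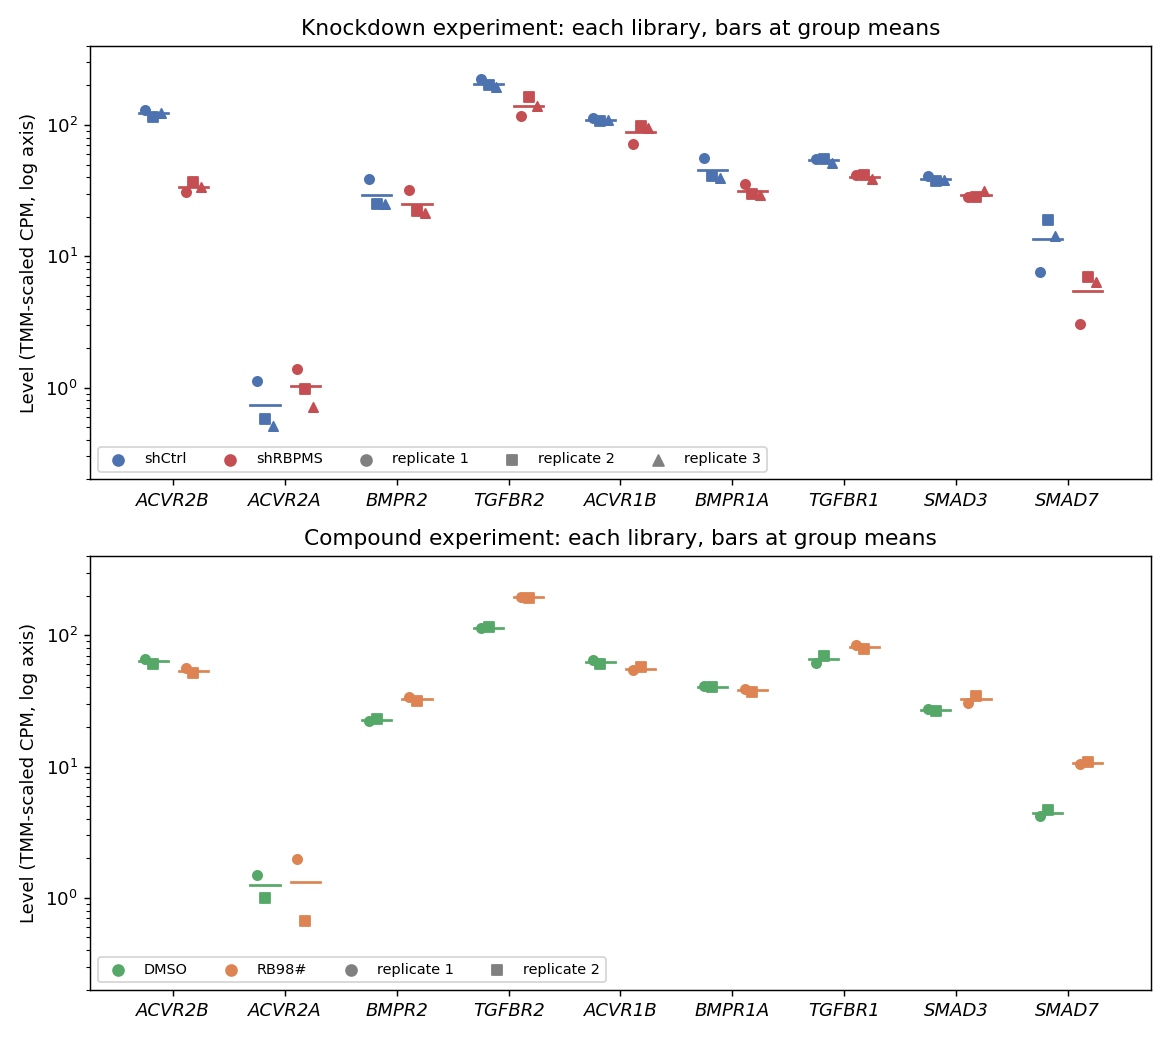
Level of each receptor and SMAD gene in every library, as TMM-scaled CPM on a log axis, with group means as bars and replicates by symbol. ACVR2B lies between 114.3 and 131.0 CPM in shCtrl and between 31.0 and 36.8 CPM in shRBPMS, while TGFBR2 lies between 113.5 and 114.6 CPM in DMSO and between 191.1 and 196.5 CPM in RB98#.

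Within the label sets the direction held for each gene, and the size differed for some. ACVR2B had a log2 ratio of -2.08 in set 1 and -1.75 in set 2. TGFBR2 had -0.93 and -0.37, and ACVR1B had -0.65 and -0.17. TGFBR1 had -0.40 and -0.42. BMPR1A had -0.67 and -0.43, SMAD3 had -0.52 and -0.33, and BMPR2 had -0.26 and -0.20. Set 1 thus held the larger fall for ACVR2B, TGFBR2, ACVR1B, BMPR1A, SMAD3 and BMPR2, and not for TGFBR1 or SMAD7. ACVR2A had a smaller rise in set 1 (0.31) than in set 2 (0.64). With 1 library per group in set 1, these ratios have no error of their own.

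**Figure D2:**
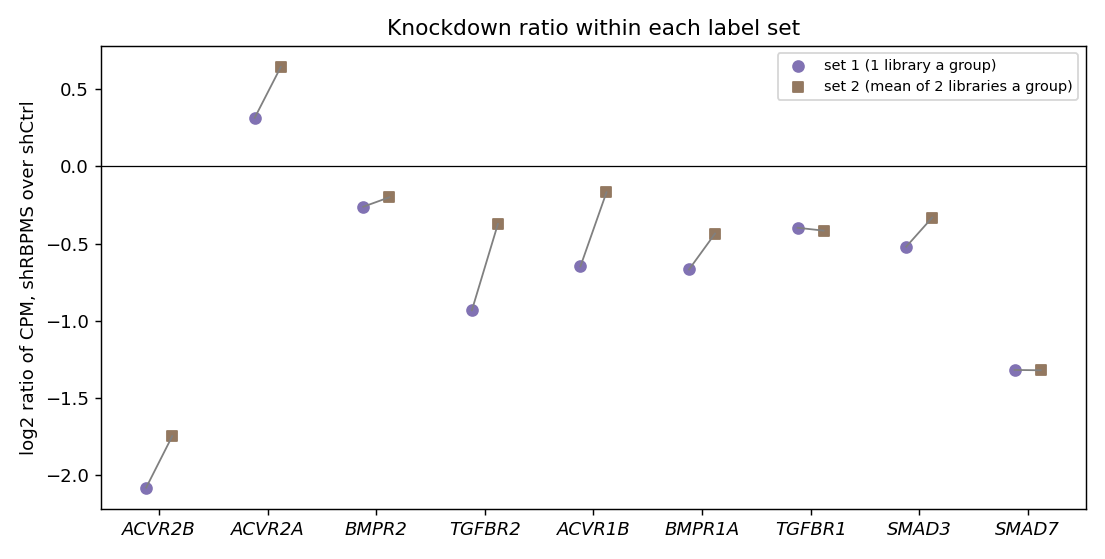
Knockdown ratio of each gene within label set 1 (circles, 1 library a group) and label set 2 (squares, mean of 2 libraries a group), in log2 units of CPM. All genes but ACVR2A lie below 0 in both sets, and most of these, TGFBR2 and ACVR1B among them, are farther from 0 in set 1.

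In 7 of the 9 genes all shRBPMS libraries lay below all shCtrl libraries, against 13.6% of the 16215 genes tested. The median log2 change of the 9 was -0.41, against 0.015 over all genes. As the knockdown led to the choice of these genes, nothing is read from these figures. In the authors' deposited table the log2 changes were -1.82 for ACVR2B, -1.33 for SMAD7 and -0.48 for TGFBR2.

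The genes whose level followed ACVR2B most closely over the 6 knockdown libraries were ANP32B (Pearson r = 0.998), CHEK1 (0.998), IPO5P1 (0.998), PIGS (0.998) and RTN3 (0.998), out of 10605 genes. ANP32B encodes a histone chaperone, CHEK1 a checkpoint kinase, PIGS a subunit of the GPI transamidase, RTN3 a reticulon of the endoplasmic reticulum, and IPO5P1 is a pseudogene. These libraries share the contrast and the label sets, so r describes a pattern of 2 groups. Among the other genes of the family r was 0.968 for TGFBR1, 0.958 for SMAD3, 0.914 for TGFBR2, 0.815 for BMPR1A, 0.799 for ACVR1B, 0.772 for SMAD7 and 0.355 for BMPR2. ACVR2A lay below the level needed for this measure and has no r.

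With RB98#, 5 of the 9 genes rose and 1 fell in edgeR's quasi-likelihood test, against 20.5% of the 12324 genes tested that rose, 17.3% that fell and 37.8% in either direction. The rises were those of SMAD7, TGFBR2, BMPR2, TGFBR1 and SMAD3. The median log2 change of the 9 was 0.26, against 0.00 over all genes. With library totals in place of TMM factors the median of all genes was -0.101 and 1690 genes rose and 3276 fell, against 2530 and 2129 with TMM. As shares of all genes these were 13.7% higher and 26.6% lower, 40.3% in all, and the log2 changes of all 9 genes kept their sign.

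SMAD7 had the largest rise of the family, from 4.23 and 4.64 CPM in DMSO to 10.5 and 10.8 CPM in RB98#. This is 2.39-fold (log2 change 1.26, SE 0.18, adjusted p = 8.04e-06), resting on 62 and 74 counts in DMSO. TGFBR2 rose from 113.5 and 114.6 CPM to 196.5 and 191.1 CPM. Replicates lay close together and the change of 1.70-fold had the smallest p of the family (log2 change 0.77, SE 0.06, adjusted p = 7.79e-10). BMPR2 rose from 22.1 and 22.9 CPM to 33.7 and 31.7 CPM (log2 change 0.54, SE 0.10, adjusted p = 0.000203). SMAD7, TGFBR2 and BMPR2 were called under every alternative setting run, the leaving out of each library included.

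TGFBR1, the partner of TGFBR2, rose from 61.3 and 69.7 CPM to 84.1 and 78.6 CPM (log2 change 0.31, SE 0.08, adjusted p = 0.00364). Without DMSO replicate 1, the lower of the DMSO libraries, its change was 0.22 and the adjusted p was 0.185. SMAD3 rose from 27.5 and 26.6 CPM to 30.5 and 34.4 CPM, a change of 0.26 (SE 0.10, adjusted p = 0.0458). This call sits at the threshold and was lost in DESeq2 (adjusted p = 0.179), in limma-voom (0.0537), with library totals (0.219) and without any library but RB98# replicate 1 (0.178 to 0.279).

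ACVR2B, so much lower after the knockdown, was at 66.2 and 60.2 CPM in DMSO and at 56.0 and 51.6 CPM in RB98#. It fell by 0.23 on the log2 scale (SE 0.08, adjusted p = 0.0346), a change of -14.8%. DESeq2 did not call it (adjusted p = 0.103), nor did edgeR without DMSO replicate 1 (0.401), DMSO replicate 2 (0.0768) or RB98# replicate 2 (0.100). ACVR1B was at 65.0 and 60.2 CPM in DMSO and 54.4 and 57.0 CPM in RB98# (log2 change -0.17, adjusted p = 0.115). It was called with library totals (-0.27, adjusted p = 0.0126). BMPR1A was at 40.8 and 40.0 CPM against 38.8 and 37.3 CPM (-0.09, adjusted p = 0.479). ACVR2A was at 1.502 and 1.00 CPM against 1.98 and 0.672 CPM, on 9 to 29 counts, and a change was not detectable at this depth (0.11, SE 0.47, adjusted p = 0.877).

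**Figure D3:**
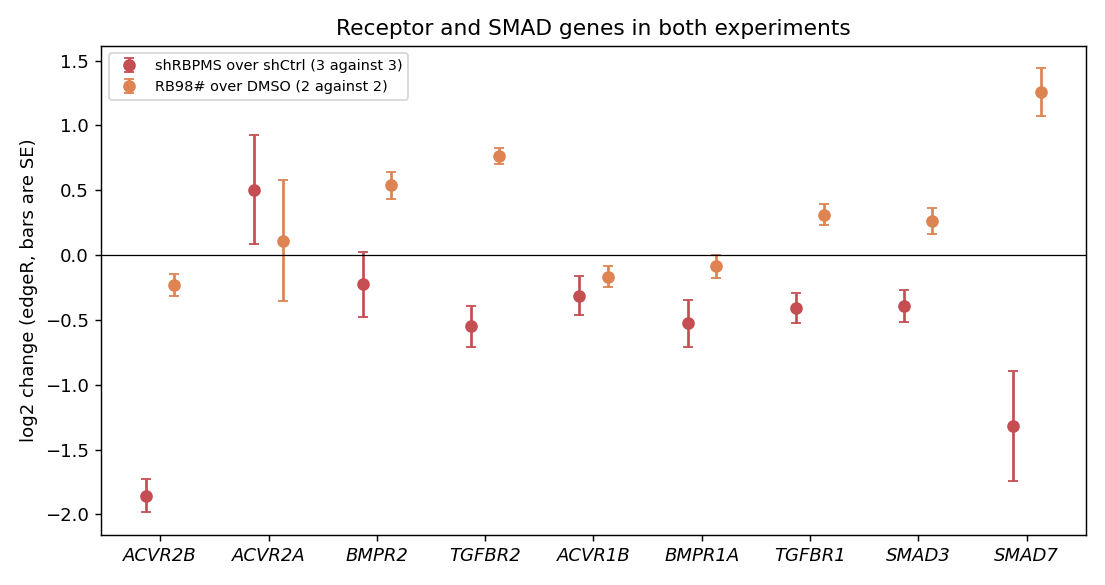
Log2 change of each gene after the knockdown (3 against 3 libraries) and with RB98# (2 against 2), each against its own controls, with SE bars. SMAD7, TGFBR2, BMPR2, TGFBR1 and SMAD3 lie below 0 in the knockdown and above 0 with RB98#, and ACVR2B lies below 0 in both, at -1.86 and -0.23.

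Set side by side, SMAD7 had a log2 change of -1.32 (SE 0.42) in the knockdown and 1.26 (SE 0.18) with RB98#. TGFBR2 had -0.55 and 0.77, TGFBR1 had -0.41 and 0.31, SMAD3 had -0.39 and 0.26, and BMPR2 had -0.23 and 0.54. The remaining genes had the same sign in both, and only ACVR2B of them was called with RB98#. ACVR2B had -1.86 and -0.23, BMPR1A -0.53 and -0.09, ACVR1B -0.31 and -0.17, and ACVR2A 0.50 and 0.11. RBPMS itself was at 7.17 and 6.40 CPM in DMSO and at 6.62 and 8.06 CPM in RB98#, overlapping. The difference between the experiments was not tested, as the knockdown values chose the family.

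The rest of the pathway was read from 112 further genes in 8 lists of textbook members, of which 67 were tested in the knockdown and 66 with RB98#. In the knockdown 0 rose and 2 fell, against 0.629% and 1.34% of all genes and 1.97% in either direction, and the median was -0.12. With the replicate block 4 rose and 17 fell, against 13.3% and 14.8% of all genes and 28.1% in either direction. Of the blocked calls named below, those of AMH, TGFB1, FURIN, SKIL, USP11, FKBP1A and RUNX1 were lost when replicates 2 and 3 were added up and the label set was fitted. With RB98# 23 rose and 5 fell, and the median was 0.14. As shares, 34.8% of these genes rose, against 20.5% of all genes, and 7.58% fell, against 17.3%. SKIL, SMAD6, PMEPA1, TGIF1 and BAMBI stand in more than 1 list and are counted once in these totals.

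Of 6 other SMADs all were tested in the knockdown, with 0 called. With the replicate block 0 rose and 3 fell, against 13.3% and 14.8% of all genes. SMAD5, a BMP receptor SMAD, had a blocked log2 change of -0.59 (adjusted p = 0.00574), the inhibitory SMAD6 -0.48 (0.00610) and SMAD1, another BMP receptor SMAD, -0.40 (0.0252). With RB98# SMAD1 fell from 31.5 and 32.8 to 19.5 and 19.9 CPM (log2 change -0.71, adjusted p = 9.83e-06). SMAD6 fell from 17.1 and 21.6 to 12.8 and 12.8 CPM (-0.60, adjusted p = 0.00137), though not without DMSO replicate 2 (-0.41, adjusted p = 0.104). SMAD4, the common partner of receptor SMADs, rose by 0.43 (adjusted p = 6.57e-05). The inhibitory SMADs were thus called in opposite directions with RB98#, SMAD7 up and SMAD6 down. SMAD2 was not called in either experiment, with a mean of 65.2 ± 10.3 CPM over the shCtrl and 64.5 ± 7.13 CPM over the shRBPMS libraries. SMAD9 was at 0.656 CPM in shCtrl and was tested in the knockdown alone.

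Among co-receptors, 4 were tested in the knockdown and 5 with RB98#. CD109, a TGF-beta binding surface protein, had a blocked log2 change of -2.86 (adjusted p = 0.00395) and -3.28 without the block (adjusted p = 0.0684). shCtrl replicate 1 held 139.2 CPM of it, where shCtrl replicates 2 and 3 had 28.3 and 28.0 CPM and the shRBPMS libraries 6.55 to 6.93 CPM. Without that library the log2 change was -2.08 (adjusted p = 0.0115). NRP1 and BAMBI, a decoy receptor, had blocked changes of -1.69 and -0.51 and were not called without the block. NRP1 rested on 54, 34 and 41 counts in shCtrl and on 30, 6 and 7 in shRBPMS, and its groups overlapped. With RB98# ENG, the co-receptor endoglin, fell from 44.6 and 45.9 to 28.0 and 34.4 CPM (-0.54, adjusted p = 0.000165). CD109 rose by 0.41 (adjusted p = 0.0107), and this call was lost in DESeq2 (0.0669), with library totals (0.0522) and without DMSO replicate 2 (0.272) or RB98# replicate 1 (0.0511).

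Of 29 ligands 9 were tested in the knockdown and 8 with RB98#, and 0 were called in either by edgeR without a block. Over all genes 1.97% were called in the knockdown and 37.8% with RB98#. TGFB1 was the highest of the 9 per length, at a mean of 42.8 FPKM in shCtrl. It ranged from 121.5 to 166.6 CPM across shCtrl libraries and from 147.8 to 206.1 CPM across shRBPMS libraries. Its blocked log2 change was 0.29 (adjusted p = 0.0165, and 0.112 with replicates 2 and 3 added up). AMH, anti-Müllerian hormone, had -0.40 (0.0265, and 0.164 added up). At an unadjusted p below 0.05 edgeR called 2733 genes of the knockdown and 5706 genes with RB98#.

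Of 10 secreted antagonists and latency proteins tested in the knockdown 0 rose and 2 fell, against 0.629% and 1.34% of all genes. These 2 were NOG, which encodes the BMP antagonist noggin, and FSTL1, a follistatin-like protein. NOG fell from 32.6, 37.5 and 36.9 CPM to 17.8, 15.1 and 17.4 CPM (log2 change -1.09, SE 0.14, adjusted p = 0.0258). FSTL1 fell from 73.6, 53.8 and 57.9 CPM to 33.1, 34.0 and 35.4 CPM (-0.85, SE 0.15, adjusted p = 0.0488). Neither was called without shCtrl replicate 2 or 3 or any shRBPMS library. The adjusted p there ran from 0.0619 to 0.160 for NOG and from 0.109 to 0.230 for FSTL1. FSTL1 was also not called by limma-voom (0.0536) or by edgeR with DESeq2 size factors (0.0537). LTBP4, a latent TGF-beta binding protein, had a blocked log2 change of 0.60 (adjusted p = 0.0383, and 0.466 without the block). FURIN, a protease that matures TGF-beta, had 0.34 (0.00901 with the block, 0.312 without it and 0.0678 with replicates 2 and 3 added up). With RB98# the largest change in any list was that of THBS1, thrombospondin 1, an activator of latent TGF-beta. It rose from 4.57 and 5.21 to 53.8 and 56.5 CPM (log2 change 3.49, SE 0.12, adjusted p = 6.6e-17). TWSG1, a BMP binding protein, rose by 0.61 (adjusted p = 3.45e-06). FURIN rose by 0.22 (adjusted p = 0.0120), a call lost with library totals (0.173) and without either DMSO library (0.148 and 0.170).

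Intracellular inhibitors and ubiquitin enzymes were the longest list tested with RB98#: 9 of 18 rose and 1 fell, against 20.5% and 17.3% of all genes, with a list median of 0.18. The corepressor SKI rose from 87.9 and 93.9 to 273.0 and 235.8 CPM (1.49, SE 0.07, adjusted p = 2.88e-14). Its relative SKIL rose from 27.2 and 32.1 to 80.8 and 69.2 CPM (1.34, adjusted p = 9.43e-11). PMEPA1, which sequesters receptor SMADs, rose from 2.39 and 3.20 to 6.69 and 6.12 CPM (1.19, adjusted p = 0.000413), and the repressor TGIF1 rose by 0.68 (adjusted p = 8.43e-07). In the knockdown 0 of these 18 were called, with a median of -0.09. With the block 0 rose and 3 fell, against 13.3% and 14.8% of all genes: SKIL (-0.50), USP11 (-0.31) and FKBP1A (-0.19). With replicates 2 and 3 added up these had adjusted p of 0.0692, 0.106 and 0.299. Of 11 adaptors and cofactors 5 rose and 0 fell with RB98#, against 20.5% and 17.3% of all genes. Among those that rose were the acetyltransferases CREBBP (0.89) and EP300 (0.45), the ubiquitin ligase TRAF6 (0.87) and the adaptor TAB2 (0.50). In the knockdown 0 of these 11 were called. With the block 0 rose and 2 fell, TAB2 (-0.64) and RUNX1, against 13.3% and 14.8% of all genes. RUNX1 had a blocked change of -0.29 at the threshold (adjusted p = 0.0496), 0.118 with replicates 2 and 3 added up, and a change of -0.05 without shCtrl replicate 1 in the fit of group alone.

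Of 14 tested target genes of the pathway 7 rose and 2 fell with RB98#, against 20.5% and 17.3% of all genes, with a median of 0.38. CDKN1A, the cell cycle inhibitor p21, rose from 9.42 and 9.29 to 40.2 and 34.0 CPM (1.99, adjusted p = 4.66e-12), and BHLHE40, a transcription factor, rose by 0.79 (adjusted p = 0.000114). SKIL, PMEPA1 and TGIF1, given above, are also in this list, and ID3 (0.70) and JUNB (0.41) rose too. The 2 that fell were SMAD6, given above, and ID1. ID1 went from 40.1 and 38.0 to 23.3 and 22.7 CPM (-0.76, adjusted p = 1.49e-06). In the knockdown 0 of 14 were called, with a median of -0.19, and with the block 1 rose and 6 fell, against 13.3% and 14.8% of all genes. The blocked log2 change was -2.03 for ID3, an inhibitor of helix-loop-helix factors (adjusted p = 0.00165), -1.22 for CDKN1A (0.000801) and 0.82 for BHLHE40 (0.00554). Without the block these had adjusted p of 0.0555, 0.180 and 0.226.

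**Figure D4:**
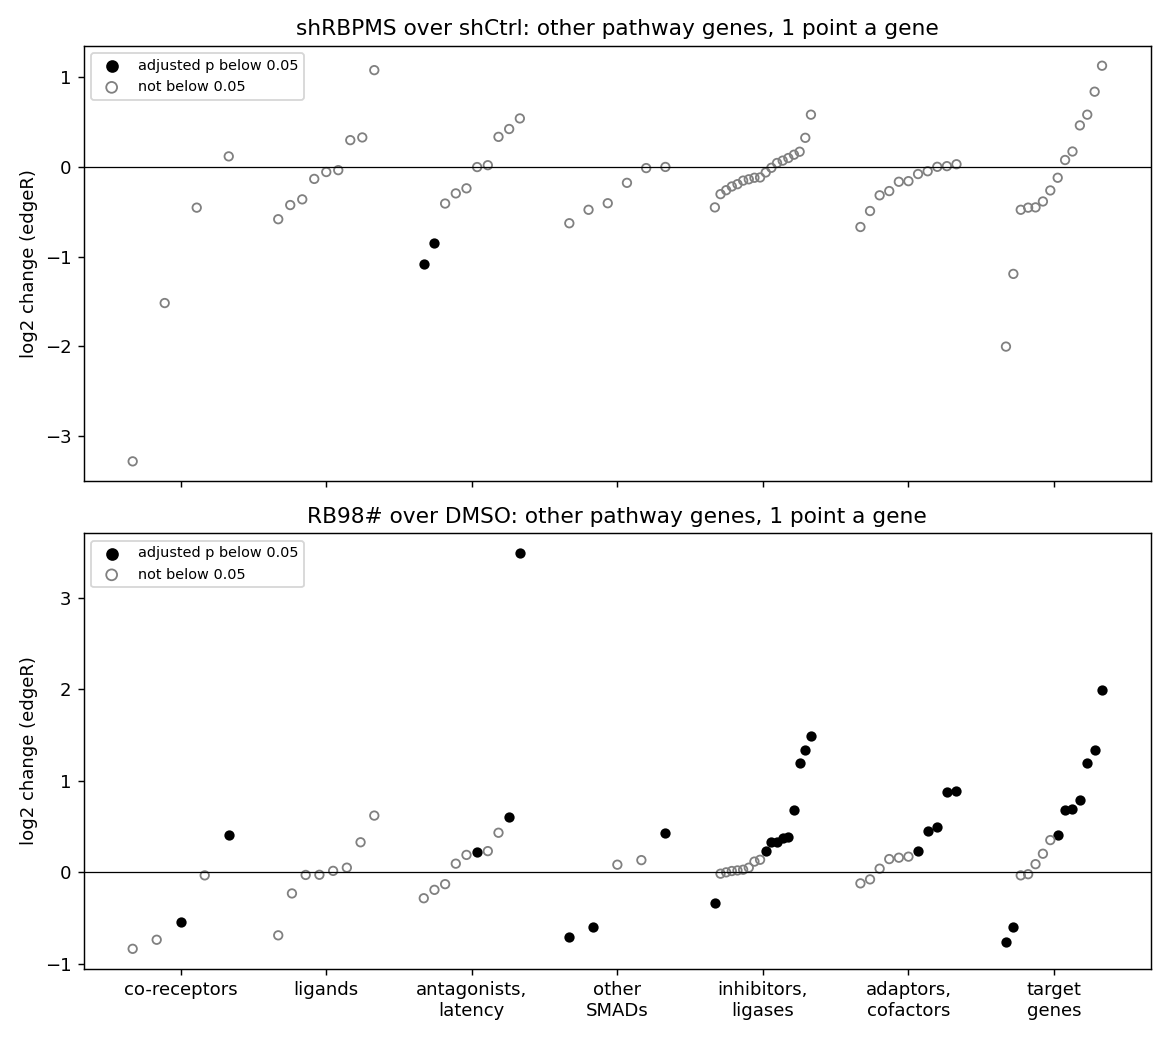
Log2 change of each other pathway gene by list, 1 point a gene sorted by value, in the knockdown (upper) and with RB98# (lower), filled where the adjusted p was below 0.05 in the fit of group alone. In the knockdown only NOG and FSTL1 are filled, and with RB98# THBS1 stands highest at 3.49.

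The mRNAs of the 9 genes were also read for a pair of short motifs, as the series also concerns m6A and the RNA-binding protein RBPMS. In the principal GENCODE v29 transcript, GGACT, a common m6A motif, stood at 0.460 to 1.08 per kilobase, against a median of 0.944 over 12258 genes. ACVR2B held 12 in 11821 bases (1.02 per kilobase). Neighbouring CAC triplets with 1 to 12 bases between them, the spacing of motifs that RBPMS is known to bind, stood at 0.921 per kilobase in TGFBR1 and at 3.73 in ACVR1B, the lowest and the highest of the 9, against a median of 2.28. ACVR2B held 27 (2.28 per kilobase), at the middle of all genes, and SMAD7 held 5 (1.13 per kilobase). These are matches of letters on the transcript strand, and the RNA immunoprecipitation and m6A libraries were not analysed here.

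By GENCODE v29 on GRCh38, ACVR2B (ENSG00000114739) spans bases 38453851 to 38493142 of chromosome 3, and TGFBR2 (ENSG00000163513) bases 30606502 to 30694142 of chromosome 3. BMPR2 (ENSG00000204217) spans bases 202376936 to 202567751 of chromosome 2. These are plus-strand genes, while SMAD7 (ENSG00000101665), at bases 48919853 to 48952052 of chromosome 18, is read from the minus strand. All 9 genes are protein-coding, and all but SMAD7 overlap at least 1 other annotated gene, among them ORC4 at ACVR2A.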

How the data were processed

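RNA-seq of Kasumi-1 cells was used from 10 of 14 samples. The other 4, RIP and m6A libraries, were not analysed here. Per the submitters' processing notes reads were handled with StringTie, featureCounts 2.0.1, HISAT2 2.2.1 and fastp 0.22.0 and compared with DESeq2 1.32.0, the build being hg38/GRCh38. Per the file headers and their whole numbers, the authors deposited raw counts per gene. The compound table also holds values that the authors deposited without naming a unit, read here as FPKM because count over value follows GENCODE v29 exon length within 1% in 59.0% of genes. In the knockdown table the authors deposited a signal column per library, adjusted in a way not stated, used once as an alternative chosen after seeing the data. The authors deposited log2 fold changes with p-values, and only the log2 values are quoted. Repeated lines of the compound file (112) were dropped.

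Each experiment was fitted alone over all genes with edgeR 4.0.16 (R 4.3.3): TMM factors, default filterByExpr (a count of 10, a total of 15), group alone, two-sided quasi-likelihood F test, Benjamini-Hochberg threshold 0.05. The fit was also run on simulated counts drawn without label sets, which cannot show how it does under the sets of the knockdown. SE is the log2 change over the square root of F. Same-numbered knockdown libraries deviated together (r = 0.852, 0.772 and 0.800 over 10606 genes). Replicate 2 against 3 did about as much (0.776 and 0.767), so within set 2 same-numbered libraries did not stand out. The replicate block nevertheless treats replicates 2 and 3 as separate pairs. Values blocked by replicate number are given beside calls that the block changes. Alternatives were DESeq2 1.42.0, limma-voom (limma 3.58.1), other scalings, no filter, the label set and leaving out each library. The members and lists were chosen with earlier results of these data known. Named are all members, the other SMADs, RBPMS and up to 4 called genes per list (in the knockdown filled up from the blocked fit). With RB98# all called target genes are named. Also named are the 5 genes with the highest r with ACVR2B at a mean log2 CPM of at least 2. Promoter windows are the 250 bases before the most upstream RefSeq start of each gene, which can lie inside the gene as GENCODE v29 has it.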

Additional observations from a re-analysis of the deposited data

How the results depend on the processing

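In the knockdown, edgeR called 320 genes with the group alone, 1346 were called by DESeq2, 4549 with the replicate block, 5810 with the label set as a covariate and 2681 with that covariate once replicates 2 and 3 had been added up. Leaving out 1 library gave 0 to 322 genes. The 0 counts in edgeR came without shCtrl replicate 3 (2010 at an unadjusted p below 0.05), shRBPMS replicate 2 (1866) or shRBPMS replicate 3 (2002). For the other pathway genes the count of 2 became 1 with DESeq2 size factors, 1 in limma-voom, 5 in DESeq2, 21 with the replicate block, 25 with the label set and 14 with summed replicates, and 0 to 3 with 1 library left out. With RB98# 4659 genes were called, 2731 to 5028 with 1 library left out, the lowest without DMSO replicate 2 and 2843 without DMSO replicate 1. Of the receptor and SMAD genes 6 were called, 3 without DMSO replicate 1. The sign changed for BMPR2 in the knockdown without shCtrl replicate 1 (0.00, within a range of -0.44 to 0.00 over the libraries left out) and for ACVR2A with RB98# in limma-voom (-0.04), without DMSO replicate 2 (-0.16) and without RB98# replicate 1 (-0.89, within a range of -0.89 to 0.66), and in no other receptor or SMAD gene. In the compound experiment same-numbered libraries did not deviate together (r = -0.0585), and the replicate block called 4430 genes and lost the call of SMAD3 (adjusted p = 0.0548). The cause of these differences was not tested. Low counts of ACVR2A limit what can be seen of it.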
